A study of Brassica napus and Orychophragmus violaceus with 4 samples.

Results

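Petal transcriptomes of *Brassica napus* and *Orychophragmus violaceus*, a purple-flowered crucifer, were compared over Arabidopsis gene loci. All 4 libraries of the series entered the comparison. The 2 *B. napus* libraries were H3, the yellow-flowered cultivar Huashuang 3, and M4, a disomic addition line that holds the full *B. napus* set plus a pair of *O. violaceus* chromosomes and has red on its yellow petals. The 2 *O. violaceus* libraries were OvP, the wild type with purple petals, and OvW, a natural mutant with white petals. All plants grew in a greenhouse, and petals of half-open flowers were used. Reads of every library had been aligned to the genome of another species, *B. rapa*, and the reads of all *B. rapa* genes with the same Arabidopsis match were summed here to 1 locus. Of 19955 loci, 12003 reached 5 CPM (reads scaled to the library total with TMM factors) in at least 2 libraries and were compared. A locus was kept for a species when both of its libraries lay above both libraries of the other. This held for 3710 loci with *O. violaceus* above, 30.9% of those compared, and for 4600 loci with *B. napus* above, 38.3%.

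The colours of crucifer petals come from pigments of separate origins. Yellow carotenoids are made in plastids from isoprenoid units of the methylerythritol phosphate (MEP) pathway, and are stored there as esters in lipid bodies coated by fibrillins, or are broken down by cleavage dioxygenases. Anthocyanins and the colourless flavonols and sinapate esters are built from phenylalanine, and MYB and bHLH factors switch on the late anthocyanin genes. The MEP pathway also feeds the terpenes that petals release as scent.

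The libraries differed in depth by species. M4 and H3 held 15507389 and 16447021 reads on genes, and OvP and OvW held 1850787 and 2040729. A count of 3 reads stood for 0.196 and 0.184 CPM in M4 and H3 and for 1.66 and 1.496 CPM in OvP and OvW, on total reads. For a locus that was lower in *O. violaceus*, lower expression and fewer alignable reads cannot be told apart, so the loci higher in *O. violaceus* are the safer direction. In bulk petals, fewer cells of a type and less RNA per cell cannot be told apart either. The 2 libraries of a species are different lines with 1 library each, so the spread behind every test is that between lines, and M4 also carries *O. violaceus* genes. *AP3* and *PI*, which specify petals, had 1038, 1147, 2865 and 4387 CPM and 2188, 3157, 1694 and 3102 CPM in M4, H3, OvP and OvW. The 11 stamen and pollen markers in the sheet summed to 9.68 and 17.4 CPM in M4 and H3 and to 50.5 and 55.0 CPM in OvP and OvW. *VGD1*, a pollen tube gene, held 7.12, 14.9, 21.5 and 32.979 CPM of these sums, and the part of such tissue in the species differences was not tested. The 6 carpel and nectary markers summed to 10.99 to 57.9 CPM and the 6 guard cell markers to 60.2 to 116 CPM. *A9*, *LTP12* and *AGP6* had 13 reads or fewer in every library, and *AG* had 14 or fewer.

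By edgeR's quasi-likelihood test with Benjamini-Hochberg adjustment (adjusted p of 0.05 or less and at least a 2-fold difference), 1353 loci (11.3% of those tested) were called higher in *O. violaceus* and 1790 loci (14.9%) were called lower. All 3143 called loci also had libraries that did not overlap between the species, beside 69.2% of all loci tested. Calls and overlap come from the same values, so neither is separate support for the other. The median log2 difference of *O. violaceus* over *B. napus* was -0.19 over all loci with the TMM factors and -0.03 with the size factors of DESeq2, and the quartiles were -1.43 and 0.99. Of the called loci, 650 were at least 10-fold higher and 798 at least 10-fold lower in *O. violaceus*. Without OvP and without OvW, when the spread came from M4 and H3 alone, edgeR called 0 loci, while 2772 and 2758 loci had an unadjusted p under 0.05. With a lone *O. violaceus* library in each, these fits took no spread from that species, and no conclusion was drawn from their counts. No other tool was run on 3 libraries. Without H3 the counts were 899 higher and 730 lower, and without M4 they were 1687 and 1571. With the *B. napus* reads drawn down to the depths of *O. violaceus*, 1429 were called higher and 1583 lower. A set of 19 tested housekeeping genes had a median of 0.22, with 2 called higher (*ACT11* and *TUB9*) and 2 called lower (*TUA2* and *TUB7*), shares near those of all loci, and DESeq2 called 9 and limma 3 of them. *TUB9* was called in only 5 of its 11 alternatives that kept both *O. violaceus* libraries. A locus could reach the minimum through 1 species alone, so the list counts that follow describe the loci tested and not all list members.

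**Figure D1:**
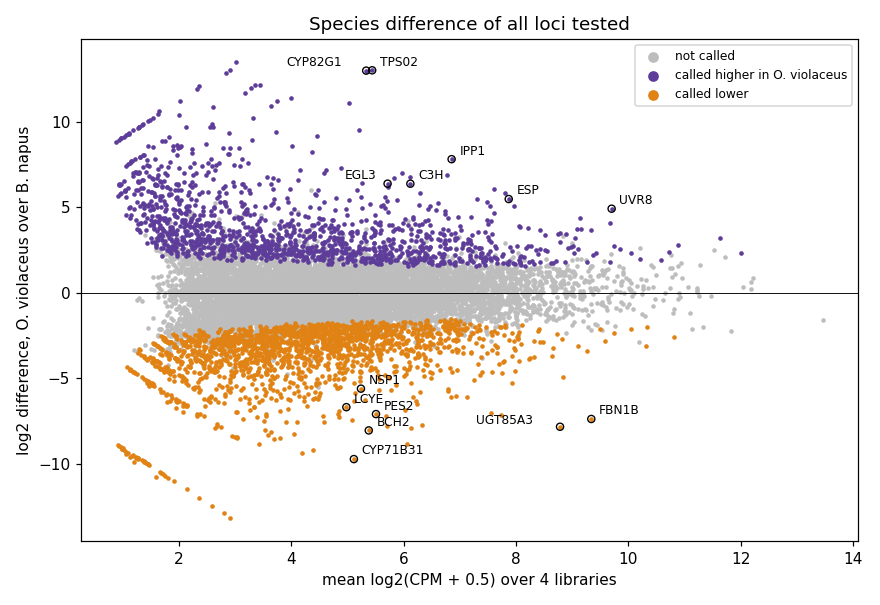
Each point is 1 of the 12003 loci tested; the x axis is the mean log2(CPM + 0.5) over the 4 libraries and the y axis the fitted log2 difference of *O. violaceus* over *B. napus*. Purple and orange mark the 1353 loci called higher and the 1790 called lower, and named loci are circled; the slanting rows of points at the low end belong to loci with few or 0 reads in a species, whose fitted differences are no bounds.

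The genes that supply plastid isoprenoids were higher in *O. violaceus*. Of the 10 MEP pathway and prenyl genes tested, 6 were called higher and 0 lower, beside 11.3% and 14.9% of all loci, with a median log2 difference of 3.13, and 9 of 10 had both *O. violaceus* libraries above both *B. napus* libraries, beside 30.9% of all loci. *DXS*, the entry enzyme of the pathway, stood at 165 and 196 CPM in M4 and H3 and at 2233 and 2416 CPM in OvP and OvW. The libraries of each species were close to each other and far from those of the other, with a log2 difference of 3.69 ± 0.56 (SE, n = 2 libraries per species; adjusted p = 0.010 by edgeR). *DXR*, the second enzyme, had 153, 119.6, 938 and 2138 CPM in M4, H3, OvP and OvW (log2 difference 3.50 ± 0.65, adjusted p = 0.0149 by edgeR). *HDS*, a late step, had 697 and 779 CPM in *B. napus* and 3463 and 6626 CPM in *O. violaceus* (2.77 ± 0.65 on the log2 scale, adjusted p = 0.027 by edgeR). Both were higher in each *O. violaceus* line than in each *B. napus* line, with OvW above OvP. The middle enzymes *CMK* and *MDS* differed by 4.17 ± 0.73 and 5.36 ± 0.81 on the log2 scale and were also called.

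The widest gap of the pathway was at *IPP1*, an isomerase that interconverts the isoprenoid units. It had 9.10 and 5.93 CPM in *B. napus* (M4 and H3) and 1744 and 1662 CPM in *O. violaceus* (OvP and OvW), a log2 difference of 7.82 ± 0.69 (adjusted p = 0.00798 by edgeR). *IPP2*, its close relative, had 194, 345, 736 and 713 CPM and was not called (1.43 ± 0.52, adjusted p = 0.0879 by edgeR). Because reads can move between such relatives, both were summed, a step chosen after their values were seen. The sum was 203 and 351 CPM in M4 and H3 and 2479 and 2376 CPM in OvP and OvW, 8.76-fold higher in the mean of *O. violaceus*. *MCT* and *HDR*, the other 2 steps of the pathway, were not called, with log2 differences of 2.33 ± 0.93 and 0.87 ± 0.61. *GGPPS11*, which makes the carotenoid precursor, did not separate the species at 91.8, 29.9, 30.1 and 49.2 CPM.

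Carotenoid synthesis genes went the other way. Of 13 tested, 9 were called lower in *O. violaceus* and 0 higher, beside 14.9% and 11.3% of all loci, with a median log2 difference of -3.05. DESeq2 and limma also called 9 each. *PSY*, the enzyme that commits the pathway to carotenoids, had 1422 and 993 CPM in M4 and H3 and 126 and 57.1 CPM in OvP and OvW (log2 difference -3.72 ± 0.65, adjusted p = 0.0132 by edgeR). The desaturases *PDS* and *ZDS* and the isomerase *CRTISO*, which lead to lycopene, were lower by smaller amounts, at -2.37 ± 0.57, -1.86 ± 0.48 and -3.22 ± 0.65 on the log2 scale. *LCYE*, the cyclase of the lutein branch, had 282 and 319 CPM in *B. napus* and 2.15 and 3.66 CPM, or 4 and 7 reads, in *O. violaceus*. Its pooled level was 102 times higher in *B. napus* (exact 95% interval 57.2 to 205, counting error only). *LCYB*, the cyclase that acts in both branches, overlapped between the species at 53.7, 139.9, 68.2 and 16.2 CPM and was not called.

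The genes that turn carotenes into xanthophylls included the largest deficits of the pathway. *BCH2*, a carotene hydroxylase, had 723 and 539.8 CPM in M4 and H3 and only 3 and 6 reads in OvP and OvW, a pooled ratio of 267 (exact 95% interval 141 to 585, counting error only). Its relative *BCH1* had 474, 680.1, 58.0 and 81.7 CPM (log2 difference -3.05 ± 0.53). Summed, the pair was 16.7-fold higher in the mean of *B. napus*. *CYP97A3*, another hydroxylase, differed by -5.27 ± 0.66 and *ZEP*, which makes the epoxides violaxanthin and antheraxanthin, by -4.79 ± 0.76 on the log2 scale. *ZISO*, *VDE* and *ABA4* were not called, and *VDE* ran from 3.14 to 5.91 CPM across the libraries with no order by species.

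Most called storage genes were lower as well. Of 7 tested, 4 were called lower and 1 higher in *O. violaceus*, beside 14.9% and 11.3% of all loci. *FBN1B*, a fibrillin, had 8896 and 7733 CPM in M4 and H3 but 51.0 and 49.2 CPM in the *O. violaceus* lines, a log2 difference of -7.37 ± 0.76 (adjusted p = 0.00798 by edgeR). On the per-length scale it stood at 9852 and 7051 RPKM (reads per kilobase of gene, scaled to the library) in *B. napus* and at 52.8 and 47.2 in *O. violaceus*, 1 of the 10 called loci with the highest mean RPKM among those lower in *O. violaceus*. *FBN1A*, a close relative of *FBN1B*, was higher in *O. violaceus* at 348 and 109 CPM against 12.2 and 22.3 CPM (3.73 ± 0.74, adjusted p = 0.0176 by edgeR). The sum of both was still 29.9-fold higher in the mean of *B. napus*. *PES2*, an ester synthase of a family that esterifies phytol in Arabidopsis and xanthophylls in tomato flowers, had 533 and 483 CPM in *B. napus* against 9 and 5 reads in *O. violaceus*. *PES1* was lower by a smaller amount (-1.83 ± 0.45).

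Of the 9 cleavage genes listed, 4 were tested, of which 3 were called higher in *O. violaceus* and 0 lower, beside 11.3% and 14.9% of all loci. The count describes those 4 loci only, since *NCED2* reached the minimum through *O. violaceus* alone. *CCD4*, the dioxygenase whose loss turns white *Brassica* petals yellow, had 20.9 and 13.6 CPM in M4 and H3 and 215 and 234 CPM in OvP and OvW (log2 difference 3.70 ± 0.52, adjusted p = 0.00847 by edgeR). No library of *B. napus* came near those of *O. violaceus*. *NCED3*, which cleaves epoxycarotenoids towards abscisic acid, differed by 2.83 ± 0.57 on the log2 scale. *NCED2* had 1 read in each *B. napus* library and 16 and 22 reads in OvP and OvW, a pooled ratio of 161 (exact 95% interval 41.6 to 1378, counting error only). *CCD1*, at 664, 1025, 380.4 and 499.9 CPM, was lower in both *O. violaceus* libraries but not called (-0.94 ± 0.52).

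**Figure D2:**
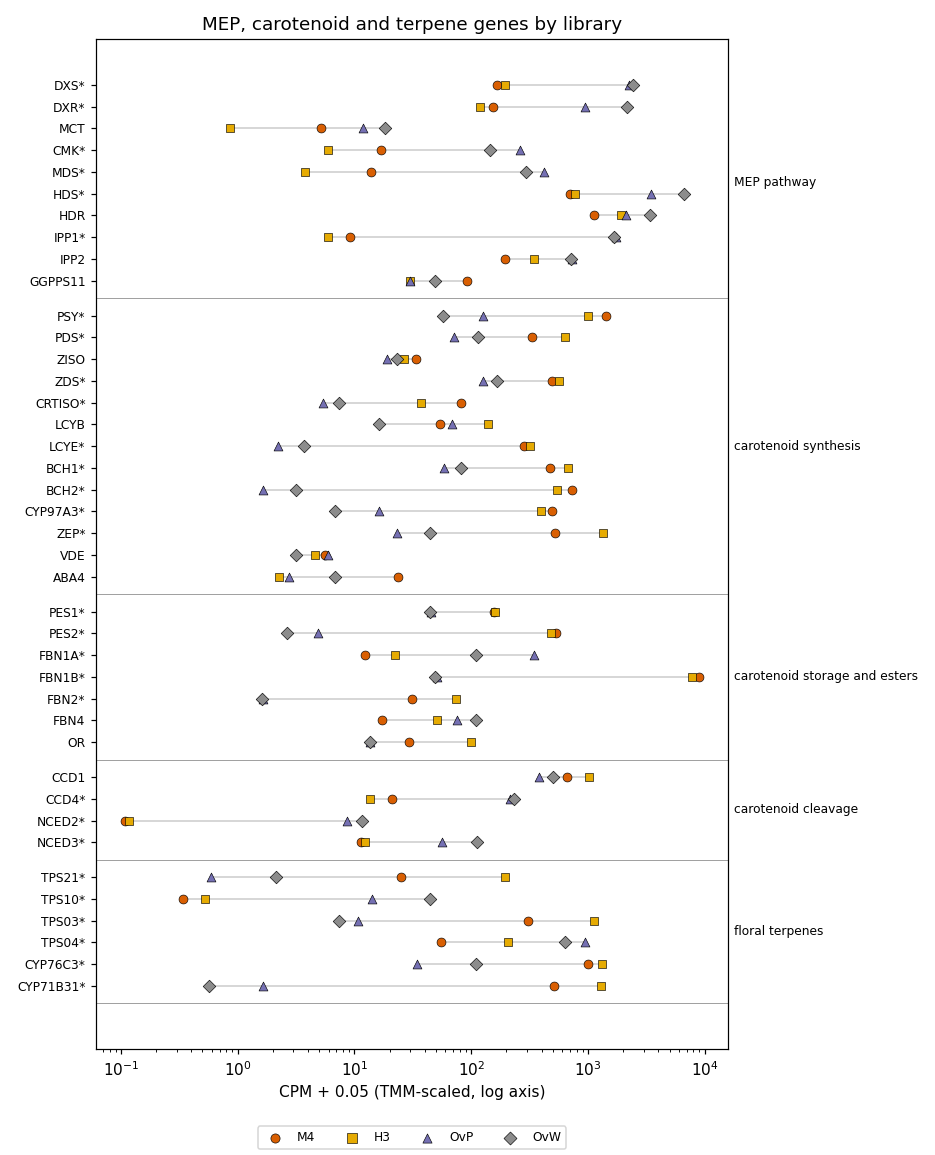
Each row is a tested gene and each marker the level of 1 library in CPM + 0.05 on a log axis; an asterisk marks a gene called by edgeR. The markers of OvP and OvW lie to the right of M4 and H3 for 9 of 10 MEP pathway genes, beside 30.9% of all loci. They lie to the left for 10 of 13 carotenoid synthesis genes, beside 38.3% of all loci.

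Terpene genes differed in both directions. Of the 8 floral terpene loci in the sheet, 6 were tested. All 6 were called, 2 higher and 4 lower in *O. violaceus*, beside 11.3% and 14.9% of all loci. DESeq2 and limma also called 6 each. Some, such as *TPS21* and *CYP71B31*, reached the minimum through 1 species alone, so the count describes those 6 loci only. *TPS02* and *CYP82G1*, given below, were not in this list. They were named for their wide gap between the species, by these same values, and add nothing to the count. *TPS03*, an ocimene synthase in Arabidopsis, had 305 and 1126 CPM in M4 and H3 and 10.7 and 7.33 CPM in OvP and OvW, while its neighbour *TPS02* had 1 and 8 reads in *B. napus* and 3022 and 2027 CPM in *O. violaceus*. Summed, the pair stood at 305, 1126, 3033 and 2035 CPM, 3.54-fold higher in the mean of *O. violaceus*, and a change of gene cannot be told apart from reads placed on the nearer relative. *CYP82G1*, the enzyme of the homoterpene TMTT in Arabidopsis, had 4 reads in each *B. napus* library and 2092 and 2243 CPM in OvP and OvW, a pooled ratio of 8665 (exact 95% interval 4395.5 to 20077, counting error only). Among called loci with a symbol it had the widest gap in favour of *O. violaceus*.

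*TPS04* encodes the Arabidopsis synthase of geranyllinalool, the substrate of that enzyme, and had 55.6, 205, 937 and 639 CPM in M4, H3, OvP and OvW (log2 difference 2.60 ± 0.74, adjusted p = 0.0449 by edgeR). Its 3 *B. rapa* genes divided by species. *Bra038569* took 951 and 3032 reads in M4 and H3 and 16 and 14 in OvP and OvW, while *Bra027098* on A09 took 2 and 3 reads in *B. napus* and 1147 and 789 in *O. violaceus*, and *Bra027099* took 0 and 0 against 581 and 417. With only the gene that had the most reads, the locus was called lower in *O. violaceus* (-3.75), and it was called higher in 7 of its 11 alternatives that kept both *O. violaceus* libraries. The linalool synthase gene *TPS10* was higher (6.20 ± 0.89), and the P450 genes *CYP76C3* and *CYP71B31*, which oxidise linalool in Arabidopsis flowers, were lower at 34.4 and 109 CPM against 1005 and 1308, and at 3 and 1 reads against 8770 and 19308 reads. *TPS21*, the caryophyllene synthase gene, was lower as well, with 1 and 4 reads in *O. violaceus* against 428 and 2872.

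At the entry to phenylpropanoids, 4 of 8 tested loci were called higher in *O. violaceus* and 1 lower, beside 11.3% and 14.9% of all loci, with a median log2 difference of 2.21. *PAL1*, the locus with the most reads for phenylalanine ammonia lyase, did not separate the species at 687, 2152, 694 and 2762 CPM. *PAL2* was higher in *O. violaceus* (50.3, 44.2, 413 and 1356 CPM, log2 difference 4.22 ± 0.74) and *PAL4* lower (151, 851, 8.06 and 46.6 CPM, -4.20 ± 1.15). Summed over its 4 loci, the enzyme stood at 890.0, 3065, 1116 and 4167 CPM, with the lines of each species far apart. *C4H*, the second step, lay higher in both *O. violaceus* libraries without a call (1.31 ± 0.56).

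The 4CL ligases, the third step, gave a clearer difference. *4CL3*, the isoform tied to flavonoids in Arabidopsis, had 24.3 and 24.1 CPM in M4 and H3 and 417 and 576 CPM in OvP and OvW (log2 difference 4.36 ± 0.53, adjusted p = 0.00798 by edgeR). *4CL1* and *4CL5* were higher by 3.11 ± 0.51 and 3.66 ± 0.57, and *4CL2* was not called (-1.50 ± 0.55). The sum of the 4 ligase loci was 85.3, 76.7, 585 and 834 CPM, 8.75-fold higher in the mean of *O. violaceus*.

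In the branch to lignin units and sinapate esters, 4 of 8 tested loci were called higher and 1 lower, beside the same 11.3% and 14.9%. *C3H*, a hydroxylase of the caffeoyl route, had 9.45 and 5.66 CPM in *B. napus* and 492 and 775 CPM in *O. violaceus* (log2 difference 6.39 ± 0.66, adjusted p = 0.00798 by edgeR). *CCoAOMT1*, the methyltransferase after it, had 30.2, 33.9, 338 and 3987 CPM in M4, H3, OvP and OvW. Its *O. violaceus* lines were both above *B. napus* but 11.8-fold apart from each other, and the difference was 6.08 ± 1.27. *CCR1*, a reductase of lignin synthesis, and *UGT84A2*, which makes sinapoylglucose, were higher by 3.48 ± 0.54 and 2.33 ± 0.55. *FAH1*, the hydroxylase that leads to sinapate, was lower (78.6, 293, 8.06 and 25.6 CPM, -3.46 ± 0.88).

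The early flavonoid genes were lower or did not differ. Of 7 tested, 3 were called lower in *O. violaceus* and 0 higher, beside 14.9% and 11.3% of all loci. *CHS*, the first enzyme of flavonoid synthesis, had 629 and 605 CPM in M4 and H3 and 49.97 and 85.8 CPM in OvP and OvW (log2 difference -3.18 ± 0.54, adjusted p = 0.0123 by edgeR). *CHI* followed at -2.15 ± 0.53. *FLS1*, which makes flavonols, was the lowest of the group at 339.6, 206, 13.4 and 6.28 CPM (-4.79 ± 0.65, adjusted p = 0.00839 by edgeR). *F3H*, *F3'H*, *FLS3* and the helper *CHIL* were not called, and for *F3H*, *F3'H* and *FLS3* M4 lay above both *O. violaceus* lines and H3 below OvP.

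The late anthocyanin genes had a median log2 difference of 3.03 over 7 tested loci. Of these, edgeR called 1 higher, *5MAT*, and 0 lower, beside 11.3% and 14.9% of all loci. The count of higher genes was a share near that of all loci. DESeq2 and limma called 2 each. *5MAT*, a malonyltransferase that decorates anthocyanins, had 18.2 and 0.607 CPM in M4 and H3 and 391 and 974 CPM in OvP and OvW (6.18 ± 1.55, adjusted p = 0.0326 by edgeR). *TT19*, a glutathione transferase needed to bring anthocyanins to the vacuole, and *3AT1*, an acyltransferase, were higher in both *O. violaceus* lines than in both *B. napus* lines at 4.55, 0.0674, 81.7 and 24.6 CPM and at 4.78, 0, 43.0 and 19.4 CPM. Their adjusted p values were 0.0671 and 0.128 by edgeR, and *TT19* was called higher in 6 of its 11 alternatives that kept both *O. violaceus* libraries, DESeq2 (adjusted p = 0.000117) and limma on RPKM (adjusted p = 0.0424) among them. *DFR* (24.97, 0.337, 48.4 and 17.8 CPM) and *ANS* (16.0, 0, 129 and 1.57 CPM) overlapped between the species, with M4 above OvW. Between lines of like pigmentation, *DFR* was 1.94 times higher in OvP than in M4 and 52.8 times higher in OvW than in H3, where it had 5 reads. *ANS* was 8.10 times higher in OvP than in M4, while OvW had 3 reads and H3 had 0. With pigmentation as a term, the log2 differences of *DFR* and *ANS* were 2.92 and 3.49 (adjusted p = 0.0837 and 0.0182 by edgeR), and over all loci 1681 were called higher and 2104 lower.

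Among the regulators, 2 of 7 tested loci were called higher and 1 lower, beside 11.3% and 14.9% of all loci. *EGL3*, a bHLH partner of the anthocyanin MYBs, had 6.07 and 4.92 CPM in M4 and H3 and 450.2 and 473 CPM in OvP and OvW, a log2 difference of 6.39 ± 0.57 (adjusted p = 0.00798 by edgeR). Of its 2 *B. rapa* genes, *Bra027653* took 701 of 838 reads in OvP and 699 of 904 in OvW, but 25 of 104 in M4 and 1 of 73 in H3. The *PAP2* locus, with 2 *B. rapa* genes of MYB activators, had 35.9, 10.1, 133 and 139 CPM and was called higher (2.56 ± 0.69, adjusted p = 0.0397 by edgeR). It was called in 8 of its 11 alternatives that kept both *O. violaceus* libraries. The authors reported that M4 petals express a *PAP2* homolog from the added *O. violaceus* chromosomes. Among the sequences they aligned with it was *Bra039763*, the gene of the *PAP1* locus here. They name both genes of the *PAP2* locus here *PAP1*. The part of that homolog in the M4 reads of either locus was not tested, so the M4 values may not be *B. napus* levels. Summed after their values were seen, the *PAP1* and *PAP2* loci had 37.4, 14.0, 141 and 144 CPM in M4, H3, OvP and OvW. *PAP1* was not called (1.38 ± 0.71). *MYB12*, the activator of flavonol genes, had 769 and 173 reads in *B. napus* and 5 and 0 in *O. violaceus*, a pooled ratio of 22.2 (exact 95% interval 9.49 to 68.6, counting error only). *TTG1*, the WD40 partner, was lower in both *O. violaceus* libraries but not called at 26.4, 13.8, 5.37 and 3.14 CPM. Of the 14 regulators in the sheet, only 7 were tested. *GL3*, another bHLH factor, was not among them, with 46, 17, 54 and 0 reads in M4, H3, OvP and OvW.

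**Figure D3:**
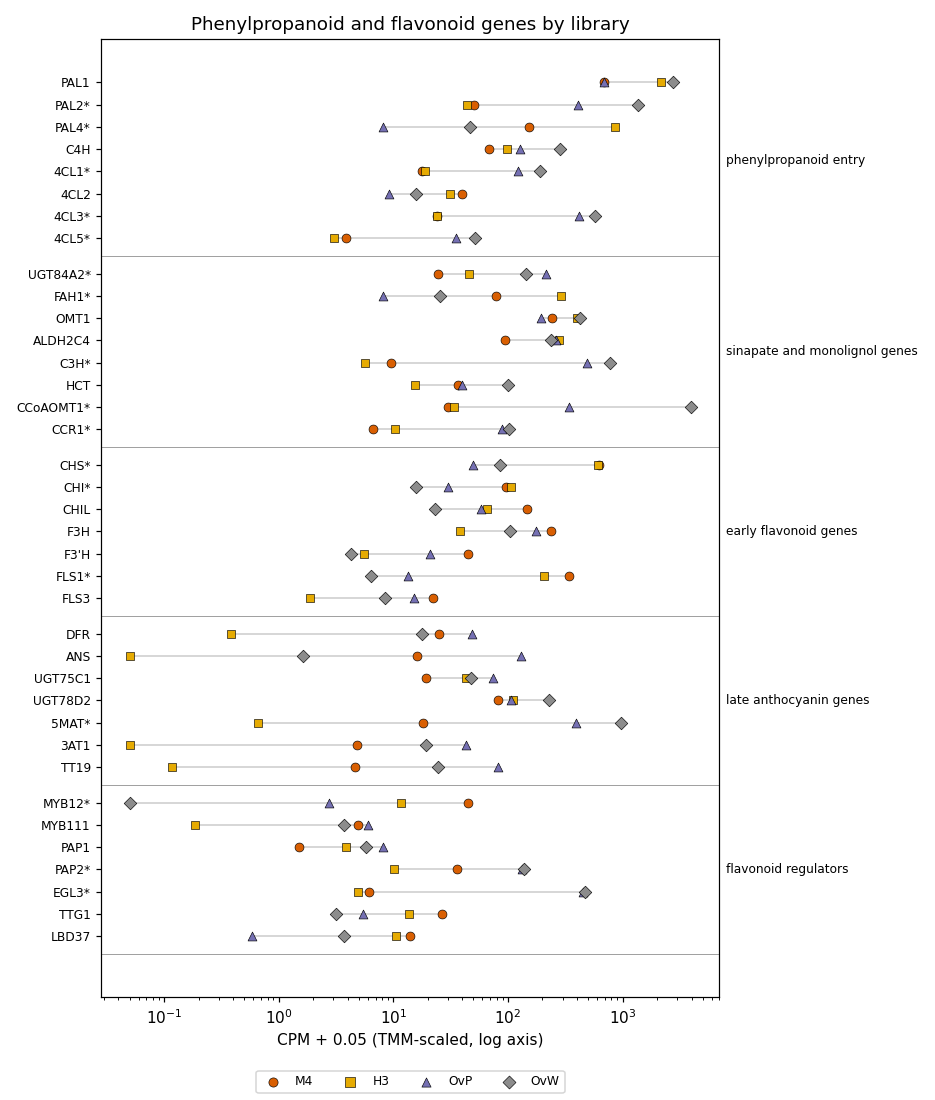
Each row is a tested gene and each marker the level of 1 library in CPM + 0.05 on a log axis; an asterisk marks a gene called by edgeR. The OvP and OvW markers of *C3H* (492 and 775 CPM) and *EGL3* (450.2 and 473 CPM) stand far right of M4 and H3, those of *CHS* and *FLS1* stand left, and for *DFR* and *ANS* the species overlap.

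Of the other lists, those of petal identity and petal growth held no edgeR call, while that of photosynthesis held calls in both directions. Of 25 tested photosynthesis genes, 5 were called higher (*LHCB1.1*, *LHCB1.3*, *LHCB2.1*, *LHCB3* and *PSBQ2*) and 1 lower (*PSAD1*), beside 11.3% and 14.9% of all loci, with a median of 0.45. Of the alternatives that kept both *O. violaceus* libraries, *LHCB1.1* was called in 5 of 12 and *LHCB3* in 8 of 11. *LHCB2.1*, a light-harvesting protein, had 23.6, 38.9, 572 and 1887 CPM (log2 difference 5.30 ± 0.83), and the whole list summed to 1453, 3893, 2115 and 8070 CPM, so green-tissue genes were highest in OvW and did not order by species. Of 6 petal identity genes, 0 were called by edgeR, with 2 at an unadjusted p under 0.05, 1 (*AP3*) called by DESeq2 and 0 by limma. *AP3* was higher in both *O. violaceus* lines (1.73 ± 0.58, adjusted p = 0.0688 by edgeR) and *AP1* lower (-1.47 ± 0.46, adjusted p = 0.0588 by edgeR). Of 3 petal growth genes, 0 were called by edgeR, DESeq2 or limma and 0 had an unadjusted p under 0.05, and *TCP4*, which limits petal growth, ran from 177 to 278 CPM.

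Of 17 cutin and wax genes, edgeR called 2 higher and 1 lower in *O. violaceus*, and DESeq2 called 7 and limma 3. The edgeR count of higher genes was a share near the 11.3% of all loci, and that of lower genes lay below 14.9%. The lipid exporters *ABCG11* and *ABCG12* had 69.8, 56.8, 442 and 628 CPM and 124, 193, 1898 and 2351 CPM (log2 differences 3.08 ± 0.51 and 3.74 ± 0.60). *MYB106*, a regulator of conical cells and cutin, had 429 and 292 reads in *B. napus* and 2 and 0 in *O. violaceus*. Among glucosinolate breakdown genes, *ESP*, which steers breakdown towards nitriles, had 34.7, 35.5, 1219 and 1938 CPM (5.49 ± 0.62), and *NSP1*, another specifier of nitriles, had 179.5, 409.8, 2.15 and 9.95 CPM (-5.60 ± 0.90). Of 6 tested synthesis genes, *MYB28*, *UGT74B1* and *SOT16* were called higher and *UGT74C1* and *SUR1* lower, beside 11.3% and 14.9% of all loci. The sheet held 9 aliphatic and 9 indolic synthesis genes, of which 3 each were tested, so the count describes those 6 loci only. Of 11 jasmonate genes, *AOC4* and *JAR1* were called lower and 0 higher, beside 14.9% and 11.3% of all loci.

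Protein families named in the sheet's own descriptions gave smaller medians. Of 44 tested ribosomal protein loci, 4 were called higher and 9 lower, beside 11.3% and 14.9% of all loci, with a median log2 difference of -1.18. Both *O. violaceus* libraries lay below both *B. napus* libraries at 27 of the 44 and above them at 7, beside 38.3% and 30.9% of all loci. Plastid ribosomal proteins were called in both directions. *RPL12-A* had 371, 128, 24.7 and 30.4 CPM (-3.18 ± 0.66) and *PRPL1* had 384, 499, 1308 and 1748 CPM (1.79 ± 0.53). Both are members of the family, whose log2 differences ran from -5.225 to 3.622. *PRPL1* was called in 6 of its 12 alternatives that kept both *O. violaceus* libraries. Of 22 histone-related loci, 2 were called higher and 4 lower (median -0.42). Of 14 tubulin-related loci, 1 was called higher and 3 lower (median -0.01), beside the same 11.3% and 14.9% of all loci. Of 3 disease resistance loci, 0 were called by edgeR (median 1.14), with 1 at an unadjusted p under 0.05 and 1 called by each of DESeq2 and limma. Among the markers of other tissues, *SHP1* was called higher and *SHP2* and *SWEET9* lower of 3 carpel and nectary genes tested, beside 11.3% and 14.9% of all loci. *SHP2*, with no reads in *O. violaceus*, reached the minimum through *B. napus* alone, so the count describes those 3 loci only. EdgeR called neither *VGD1*, the stamen gene tested, nor the guard cell genes *FAMA* and *KAT1*. Limma, with its own minimum on RPKM, called 4 carpel and nectary genes and 2 stamen and pollen genes.

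**Figure D4:**
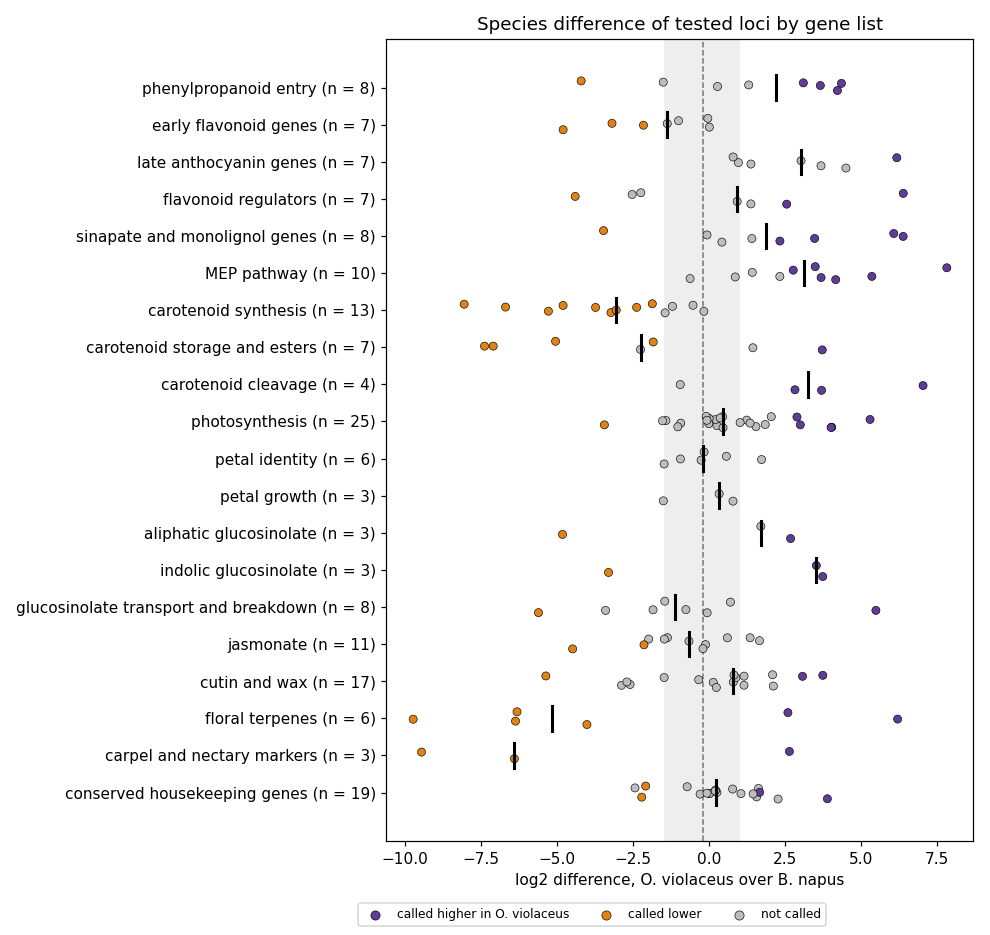
Each point is a tested locus of the list named at left, placed at its log2 difference of *O. violaceus* over *B. napus*; black bars are list medians, the grey band holds the middle of all 12003 loci between quartiles of -1.43 and 0.99, and the dashed line is their median of -0.19. The MEP pathway median of 3.13 lies right of the band and the carotenoid synthesis median of -3.05 left of it.

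Across all loci, the called genes with the highest mean RPKM in *O. violaceus* were *ERD14*, a dehydrin, at 1824 and 1608 RPKM in M4 and H3 and 14461 and 16834 RPKM in OvP and OvW, and *TIP2*, a tonoplast water channel, at 2123, 2475, 10437 and 12768 RPKM. *TIP2* was called in 6 of its 11 alternatives that kept both *O. violaceus* libraries. *UVR8*, the ultraviolet-B receptor, had 139, 98.7, 3161 and 3888 RPKM (log2 difference 4.92 ± 0.65). *UBQ3*, a polyubiquitin, *SAG21*, a senescence-associated gene, *RABG3F*, a Rab GTPase, and *PRP4*, a proline-rich wall protein, also belonged to the 10, with *AT5G22580*, *AT1G15270* and *AT1G29670*. In the other direction stood *LTP1*, a lipid transfer protein, at 16876, 7761, 1679 and 2238 RPKM, and *GRP3*, a glycine-rich protein, at 3668, 5225, 12.2 and 8.62 RPKM. *XTH6*, *MLP28*, *ELIP1*, *UGT85A3*, *GPX7*, *FBN1B*, *AT5G53880* and *AT1G55260* completed those 10.

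Ranked by the gap between species (lowest library of the higher one over the highest of the other), the 12 widest among called loci with a symbol in favour of *O. violaceus* were *CYP82G1*, *TPS02*, *CSLG2*, *PMSR1*, *MGD2*, *GPAT8*, *UGT75B2*, *GLC*, *TCP1*, *HSP90.1*, *UGT75B1* and *OPR2*. *GPAT8*, an acyltransferase of cutin synthesis, had 3 and 1 reads in *B. napus* and 135 and 206 in *O. violaceus*, a pooled ratio of 723 (exact 95% interval 280 to 2668, counting error only). *MGD2*, a galactolipid synthase, had 1 and 3 reads against 228 and 400. The glucosyltransferase genes *UGT75B1* and *UGT75B2* together had 0.175 and 0.472 CPM in M4 and H3 and 149.9 and 2043 CPM in OvP and OvW, and their lines of *O. violaceus* differed more than 10-fold. *TCP1*, a relative of the petal symmetry gene CYCLOIDEA, had 2 and 0 reads against 118 and 115.

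The 12 widest in favour of *B. napus* were *CYP71B31*, *GRP3*, *BCH2*, *FBN1B*, *CYCP2;1*, *VAR2*, *GPX7*, *NF-YB5*, *PES2*, *UGT85A3*, *LHY1* and *LCYE*, of which 4 were carotenoid synthesis or storage genes. *UGT85A3*, a glucosyltransferase, had 3829.9 and 10569 CPM in M4 and H3 and 41.9 and 21.5 CPM in OvP and OvW. *VAR2*, a thylakoid protease, had 3015 and 6196 reads against 3 and 3, and *LHY1*, a clock factor, had 10673 and 25756 reads against 4 and 15. Both sets of 12 were drawn from called loci with a symbol, by these same values. Neither their calls nor the genes in them are separate support.

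**Figure D5:**
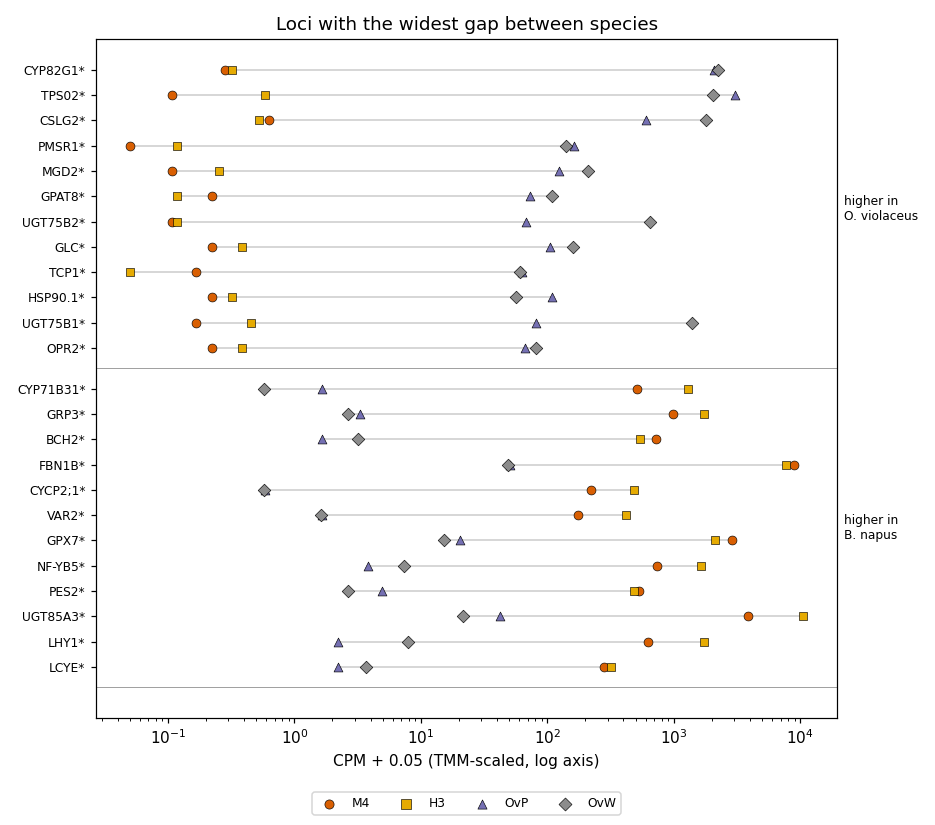
Each row is 1 of the 12 loci with the widest gap in each direction and each marker the level of 1 library in CPM + 0.05 on a log axis; asterisks mark loci called by edgeR. *CYP82G1* at the top stands at 0.233 and 0.270 CPM in *B. napus* and 2092 and 2243 CPM in *O. violaceus*.

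Loci read in only 1 species were counted at 2 depths. At full depth, 509 loci had reads in both *B. napus* libraries and in no *O. violaceus* library, and 36 of them reached 5 CPM in both. Another 348 had reads in both *O. violaceus* libraries and in no *B. napus* library, and 29 of these had 10 reads or more in each. With the *B. napus* reads drawn down at random to the depths of *O. violaceus*, the counts were 201 and 1505. *SHP2*, a carpel MADS gene, had 77 and 222 reads in *B. napus* and 0 in *O. violaceus*, which with 3 reads over both *O. violaceus* libraries as the floor was at least 11.8-fold higher in *B. napus*.

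The *B. rapa* gene that took most reads of a locus differed between the species. Over 5843 loci with at least 2 *B. rapa* genes and 10 reads in every library, M4 and H3 shared the leading gene at 85.3% and OvP and OvW at 83.0%. Between the species the leading gene was shared at 54.9% to 55.6%. For *DXS*, *Bra001832* took 27 of 2827 reads in M4 and 19 of 2903 in H3, against 1417 of 4156 in OvP and 2252 of 4615 in OvW. For *CCD4*, *Bra020970* on A08 took 4 and 7 reads in *B. napus* and 249 and 333 in *O. violaceus*, while *Bra013378* on A01 took 354 and 194 against 151 and 114. For *PSY* the order was less sharp. *Bra006391* took 77.9% and 92.0% of the reads in M4 and H3 and 32.9% and 18.4% in OvP and OvW. Use of another copy and the pull of sequence likeness on *O. violaceus* reads cannot be told apart in these counts.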

How the data were processed

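The authors sequenced polyadenylated RNA from petals, 1 library for each of the 4 lines, and aligned the reads to *B. rapa* with TopHat. The deposited counts are whole, unscaled reads for each *B. rapa* gene. The deposited RPKM values, which the methods call FPKM from Cufflinks and Cuffdiff, express each gene per kilobase and per library size. The submitters' notes also name DESeq. Tool versions, genome version and counting tool: not given in the sources used here.

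Of 37441 *B. rapa* genes, 35645 had an Arabidopsis match and were summed to 19955 loci (9771 with 1 gene), and 1796 were left out. The read column of M4 carries a code and was tied to M4 through the RPKM sheet, where the M4 to H3 ratio divided by the ratio of these reads had a central 95% range of 1.04 to 1.06 over 14978 genes. In the sheet 36 symbols had been turned into dates. Loci at 5 CPM or more in 2 libraries were tested with edgeR 4.0.16 (quasi-likelihood, TMM, species as the only term, common coefficient of variation 0.483, no term for line) in R 4.3.3. A call needed at least a 2-fold difference with a Benjamini-Hochberg adjusted p no higher than 0.05. SE is the log2 difference over the root of F. With 2 lines per species, p-values measure only the spread between these samples. Read ratios carry exact binomial intervals for counting error only. Python 3.11.15, pandas 2.3.3, SciPy 1.17.1 and matplotlib 3.10.9 made tables and plots.

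The members, 22 gene lists and named-gene rule were chosen with earlier results of these data known. Named were loci of the pigment, MEP and phenylpropanoid lists, not all of which appear above. Also named, in each direction among calls, were the 12 widest gaps and the 10 highest mean RPKM. The gap was the lowest library of the higher species over the highest of the other, with reads under 3 set to 3. Up to 3 genes at each end of the other lists were named too. Alternatives were total reads or DESeq2 1.42.0 in place of TMM and the test, minimums of 1 and 20 CPM or 1 read, only the top gene, single-gene loci, limma 3.58.1 on log2(RPKM + 1), a pigmentation term, drawn-down reads and leaving out each library.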

Additional observations from a re-analysis of the deposited data

Results flagged for a closer look

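*ABA4*, a gene of neoxanthin synthesis, went opposite ways in the 2 pairs of like pigmentation. OvP stood at 0.114 times the CPM of M4, and OvW at 3.06 times the CPM of H3, with 404, 33, 5 and 13 reads in M4, H3, OvP and OvW. The difference was not tested.

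Reads on *B. rapa* genes with no Arabidopsis match, which entered no comparison, were 2.33% of all reads on genes in OvP and 1.74% in OvW, against 1.14% in M4 and 1.11% in H3.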

How the results depend on the processing

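The counts of loci called higher and lower in *O. violaceus* (1353 and 1790) ran from 953 to 1993 and from 1349 to 2188 under total reads, DESeq2, minimums of 1 read, 1 CPM and 20 CPM, the top gene only, limma on RPKM, the pigmentation term and drawn-down reads. With single-gene loci only, where 6723 loci were tested, 904 were higher and 906 lower. Leaving out 1 library gave 0 to 1687 higher and 0 to 1571 lower. Both counts were 0 without OvP and without OvW, with 2772 and 2758 loci at an unadjusted p under 0.05 and smallest adjusted p values of 0.0621 and 0.0568 by edgeR, and were 899 and 730 without H3. A lone library of a species was then assumed to vary like the other species, and the filter needed 2 of 3 libraries. Counts of loci that did not overlap stayed within 1.5 times under total reads, ranks, RPKM and the top gene. Loci read only in *B. napus* fell from 509 to 201 and those read only in *O. violaceus* went from 348 to 1505 with drawn-down reads.

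With only the gene that had the most reads, the log2 difference turned from 2.60 to -3.75 for *TPS04*, from 1.67 to -3.07 for *TFCA*, from 0.01 to -2.93 for *HTA3* and from 0.02 to -3.34 for *EIF4A1*. Leaving out 1 library gave -3.75 to 2.97 for *CUS2* and -0.99 to 2.49 for *FLS3*, with the highest value of each without M4. The cause was not tested. The labels give no replicate numbers; the pigmentation term, which sets M4 with OvP and H3 with OvW, gave 1681 higher and 2104 lower. Of the 126 called loci in the lists and among the named loci, 39 were not called in the same direction in at least 1 alternative that kept both *O. violaceus* libraries, by share most often *HTA11* (called in 4 of 8), *LHCB1.1* (5 of 12), *TUB9* (5 of 11), *PRPL1* (6 of 12), *TIP2*, *PRP4* and *MLP28* (6 of 11 each). The depth of *O. violaceus* limits loci near 1.66 CPM.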
